A study of Mus musculus with 4 samples.

Results

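Rab GTPases are small proteins that mark the membranes of the vesicle system and decide which vesicles fuse, move or mature. Each switches between a GTP-bound form on a membrane, where it recruits effector proteins, and a GDP-bound form that is drawn off into the cytosol. In dendritic cells (DC) and macrophages they steer the uptake of dead cells and microbes, the maturation of phagosomes, the traffic of MHC molecules and the release of granules and cytokines. The genes described here are the 46 entries whose symbol is Rab followed by a number and at most a letter and a digit, of 13976 genes in the table. The mouse annotation holds 59 genes of such names, and the other 13 (Rab3b, Rab3c, Rab4a, Rab9b, Rab15, Rab17, Rab25, Rab26, Rab27b, Rab33a, Rab39b, Rab40b and Rab42) are not analysed here.

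RNA was measured in 4 myeloid populations sorted from tumours of EO771, a mouse mammary carcinoma cell line, with 1 library for each population. The populations were CD103+ conventional DC of type 1 (cDC1), CD11b+ conventional DC of type 2 (cDC2), a DC population with intermediate CD103 and with CD11b (CD103int DC) and macrophages. In its title the study names heterodimeric interleukin-15 given near the tumour, and the labels do not say which tumours had received it, nor the strain, age, number of mice pooled or gates of the sort. Levels are in CPM, read counts that the authors scaled to library size. Where 4 values stand in a row, cDC1 comes first, then cDC2, the CD103int DC and the macrophages. Each group has 1 library, so no difference was checked against replicate error, and an interval after a value is its 95% counting interval.

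The libraries held about 44425900, 44940500, 55960000 and 63817500 estimated reads. The cDC1 library stood apart in its zeros, with 454 genes listed at 0 against 19, 10 and 20 in the others. The genes of the sorted proteins stood where the labels place them, with Itgae (CD103) at 77.0, 1.10, 13.2 and 5.50 CPM and Itgam (CD11b) at 36.7, 638, 688 and 945 CPM. Of the marker lists, 12 of 12 macrophage markers were measured, and their summed level was 800.1, 4664, 2815 and 4450 CPM, so that the library labelled cDC2 carried as much of them as the macrophage library. The 10 cDC1 markers summed to 2999, 642, 756 and 856 CPM, and 4 of 5 plasmacytoid DC markers to 664.5, 165, 129 and 254 CPM. The 7 cDC2 marker genes, all measured, summed to 1389, 2326, 2711 and 2558 CPM. By this sum the library labelled cDC2 lay below the CD103int DC and the macrophages, but the genes went different ways. Itgam and Sirpa (400, 1062, 837 and 1212 CPM) were highest in macrophages. Mgl2 (337, 368, 807 and 120 CPM) and Clec4a2 were highest in CD103int DC. Cd209a (257, 31.5, 78.8 and 68.9 CPM), Clec10a and Irf4 were highest in cDC1. The 3 measured of 5 epithelial or tumour cell markers summed to 425, 120.1, 199.8 and 89.9 CPM, nearly all of it Cdh1, and the 4 measured of 5 fibroblast markers to 10.1, 43.7, 10.7 and 20.1 CPM. Markers of T cells (5 of 6 measured) and NK cells (5 of 5) summed to 11.7 CPM or less in each library, and the 2 measured platelet markers, Pf4 and Ppbp, were listed at 0 in cDC1. The column name of the macrophages begins differently from those of the DC, and whatever that beginning marks cannot be told apart from the macrophage group.

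Most Rab genes that reached 10 CPM differed less than 2-fold between any 2 populations, as did most genes. At least 10 CPM was reached by 35 of the 46 in some library and by 28 in every library. A gene is said to be 2-fold apart where log2(CPM + 1) of 2 libraries differed by at least 1 and the larger of both levels was 10 CPM or more. By this rule 7 of the 35 Rab genes were 2-fold apart between some pair of libraries, against 31.5% of the 8724 genes at that level. With a threshold of 1.5-fold it was 19 of the 35, against 59.0% of all genes. The median range over the 4 libraries was 0.65 for Rab genes and 0.69 for all genes, on the log2(CPM + 1) scale. The 7 were Rab20, Rab39, Rab27a, Rab31, Rab33b, Rab12 and Rab9. Of these, 5 were already 2-fold apart among the 3 DC libraries, as were 19.4% of all genes. Without the cDC1 library only Rab20 and Rab33b were, and the share of all genes was 14.4%.

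**Figure D1:**
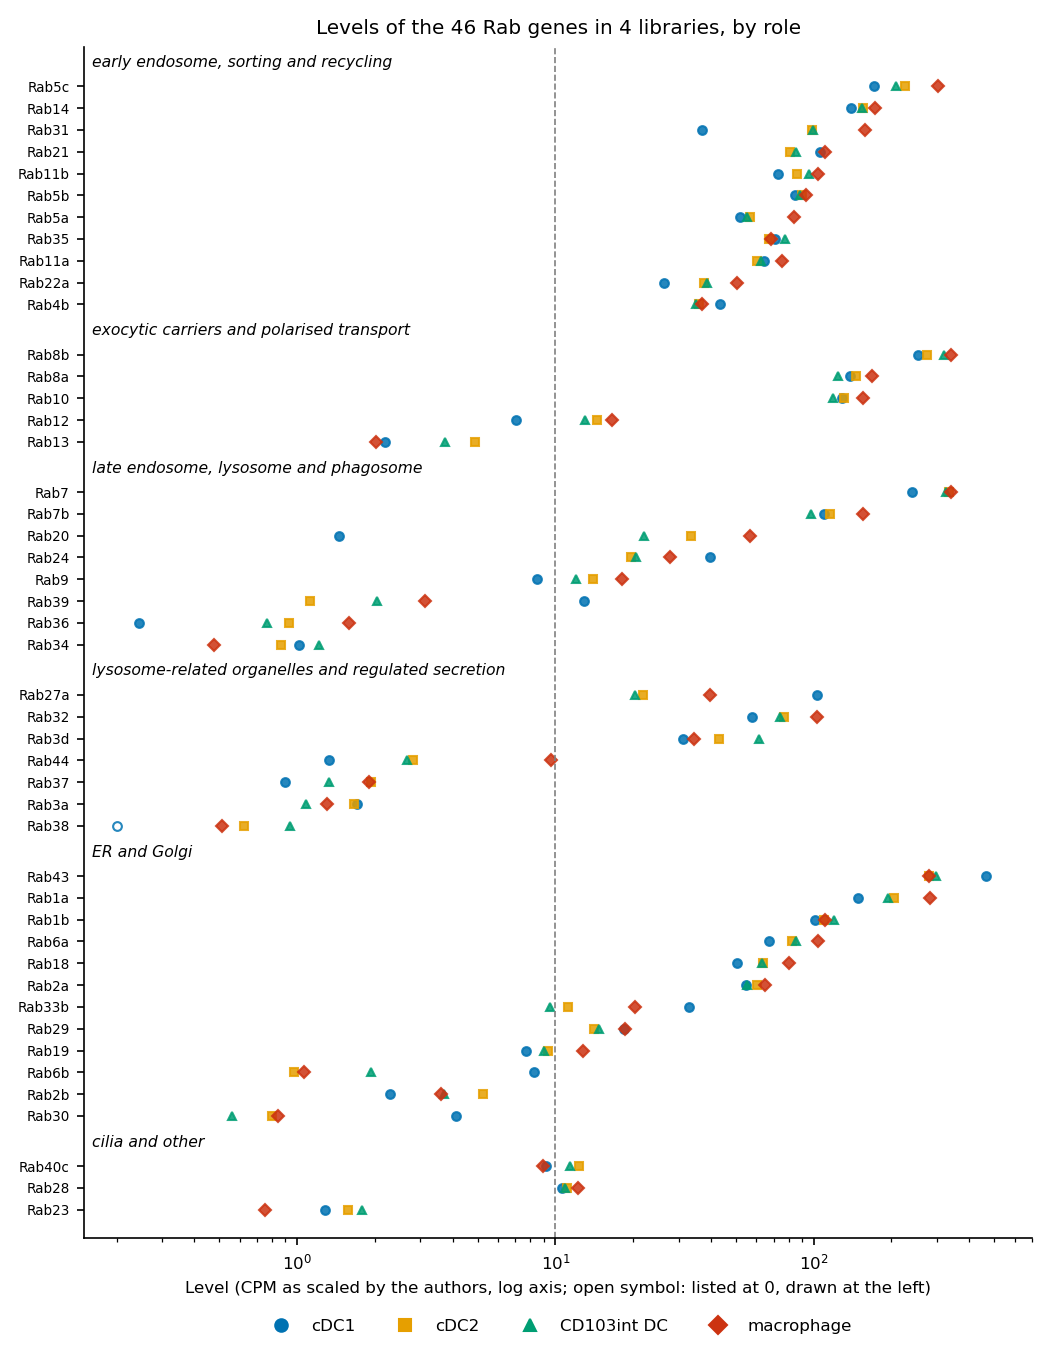
Levels of the 46 Rab genes (CPM, log axis) in the 4 libraries, grouped by role and ordered by their highest level, with 1 symbol for each library; the dashed line is 10 CPM and the open symbol marks Rab38, listed at 0 in cDC1. For most genes the 4 symbols lie close together, while Rab20 spans 1.46 to 56.9 CPM and Rab27a 20.3 to 103 CPM.

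Rab27a, Rab39 and Rab33b had their highest level in cDC1. Rab27a docks secretory granules and lysosome-related organelles at the plasma membrane and, in DC, is known to bring the phagocyte oxidase to phagosomes. Its level was 103 CPM in cDC1, 21.9 in cDC2, 20.3 in CD103int DC and 39.7 in macrophages. The cDC1 level stood apart, with macrophages next and the other DC populations level with each other. The ratio of cDC1 was 4.72 (4.41 to 5.05) to cDC2, 5.09 (4.78 to 5.43) to CD103int DC and 2.60 (2.47 to 2.74) to macrophages. Rab39, a GTPase of late endosomes and phagosomes with a known part in cross-presentation, the display of engulfed antigen on MHC class I, stood at 12.9, 1.12, 2.04 and 3.13 CPM. It was low everywhere outside cDC1, where 52 to 171 estimated reads lay behind each value. Its ratio of cDC1 was 11.5 (8.68 to 15.6) to cDC2, 6.34 (5.20 to 7.79) to CD103int DC and 4.13 (3.48 to 4.91) to macrophages. Rab33b, a Golgi GTPase that also takes part in autophagosome formation, stood at 32.9, 11.2, 9.53 and 20.4 CPM. The ratio of cDC1 was 2.95 (2.67 to 3.26) to cDC2 and 3.46 (3.13 to 3.82) to CD103int DC. To macrophages it was 1.615 (1.495 to 1.744), under 2-fold. The macrophage level was 2.14-fold (1.93 to 2.38) above that of the CD103int DC. Rab27a and Rab39 were at least 2-fold above every other library in cDC1, as were 3.83% of all genes.

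Rab20, Rab31, Rab12 and Rab9 had their lowest level in cDC1 and their highest in macrophages. Rab20, which acts in phagosome maturation and is induced by interferon gamma in macrophages, had the widest range of the family. It was at 1.46 (1.13 to 1.83) CPM in cDC1, 33.4 in cDC2, 22.0 in CD103int DC and 56.9 in macrophages. The cDC1 value, from 71 estimated reads, lay far below the rest, and the other populations were ordered CD103int DC, cDC2, macrophage with intervals that did not touch. Against cDC1 the level was 22.9-fold (18.2 to 29.7) higher in cDC2, 15.1-fold (11.98 to 19.6) in CD103int DC and 39.05-fold (31.1 to 50.5) in macrophages. The CD103int DC level was 2.58-fold (2.42 to 2.76) below that of macrophages. Rab31, which moves cargo between the trans-Golgi network and endosomes, stood at 36.9, 98.4, 99.5 and 158 CPM. Its level was 2.67-fold (2.52 to 2.82) above cDC1 in cDC2, 2.70-fold (2.56 to 2.84) in CD103int DC and 4.27-fold (4.06 to 4.50) in macrophages. Rab20 and Rab31 were at least 2-fold below every other library in cDC1, as were 7.02% of all genes.

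Rab12 and Rab9 were 2-fold apart in 1 comparison only, cDC1 against macrophages. Rab12, which sends recycling-endosome cargo to lysosomes, stood at 7.05, 14.5, 13.0 and 16.6 CPM and was 2.36-fold (2.08 to 2.68) higher in macrophages than in cDC1. Rab9, which returns mannose 6-phosphate receptors from late endosomes to the Golgi, stood at 8.52, 14.0, 11.98 and 18.05 CPM and was 2.12-fold (1.89 to 2.38) higher. When the 4 columns were rescaled to equal totals neither was 2-fold apart any more (log2 differences of -0.79 and -0.66), and Rab33b between CD103int DC and macrophages was not either (-0.78). Rab9 lay at the threshold, with a range of 1.0004, while Rab24 (0.98) and Rab3d (0.95) lay just under it.

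**Figure D2:**
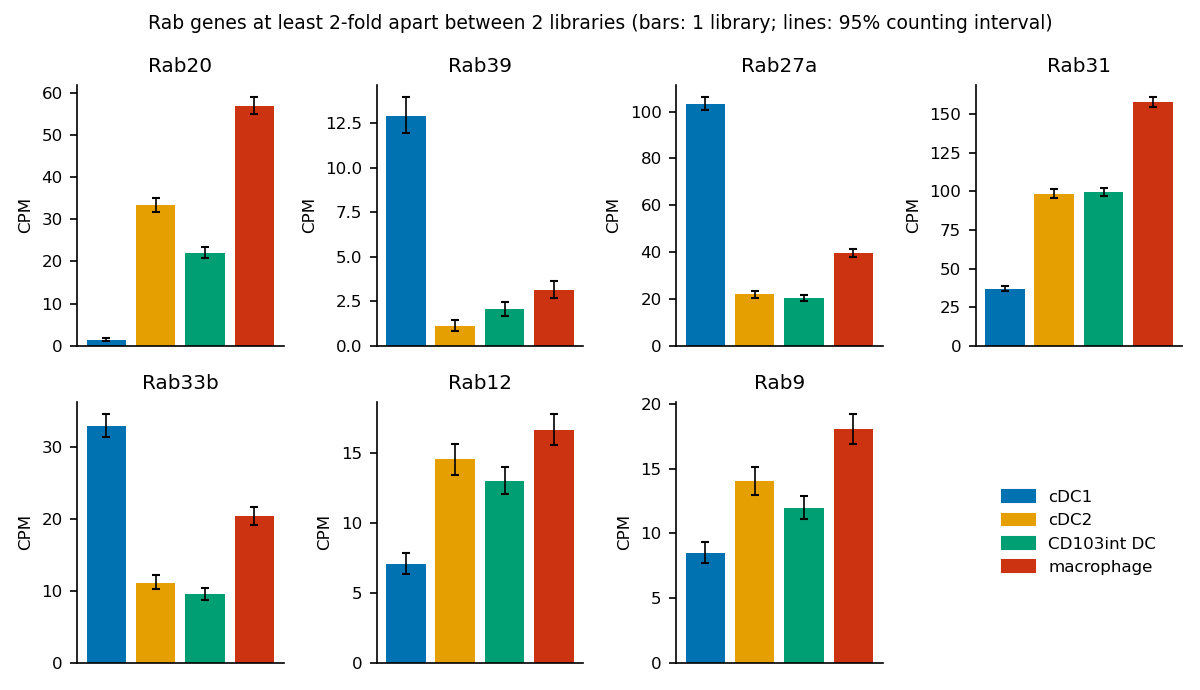
Levels (CPM, axis from 0) of the 7 Rab genes at least 2-fold apart between some pair of libraries, with 1 bar for each library and lines for the 95% Poisson interval of the estimated reads. Rab39, Rab27a and Rab33b are highest in cDC1, and Rab20, Rab31, Rab12 and Rab9 are lowest there.

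Some markers of other cells moved with these genes. The summed plasmacytoid DC markers were highest in cDC1, as were Rab27a, Rab39 and Rab33b, with Siglech, the defining marker, at 15.0, 1.38, 0.366 and 0.733 CPM. Most of that sum was Tcf4, at 501.5, 70.7, 63.2 and 110 CPM, and Ccr9 was highest in cDC1 too. Bst2 went another way, at 91.6, 90.0, 63.3 and 138 CPM, highest in macrophages. The epithelial or tumour cell markers were highest in cDC1 as well. Cdh1 stood at 416, 118, 194.5 and 87.9 CPM, Epcam at 6.08, 1.23, 4.29 and 0.843 CPM and Krt8 at 3.201, 1.29, 1.03 and 1.12 CPM. Kit, the 1 measured gene of 5 mast cell markers, stood at 67.8, 12.1, 12.3 and 10.2 CPM. Summed macrophage markers were lowest in cDC1, as were Rab20 and Rab31, but they were higher in cDC2 than in CD103int DC, between which Rab31 was level. Csf3r, the 1 measured gene of 6 neutrophil markers, followed the order of Rab20, at 8.87, 62.2, 33.2 and 157 CPM. The part of these markers in the Rab differences was not tested. In bulk libraries, fewer cells of a type and less RNA in each cell cannot be told apart.

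The promoters of the 5 genes with the widest ranges are shown because these genes fall into 2 opposed patterns. Rab39, Rab27a and Rab33b were highest in cDC1, and Rab20 and Rab31 were lowest there. The sequences are those of RefSeq on GRCm38.p6, up to 250 bases before the start of transcription, in the gene's own direction, and bases inside the GENCODE gene were left out. Capitals mark GC boxes (GGGCGG), which bind Sp-family factors, in Rab33b also a PU.1 core (GAGGAAG), an element of myeloid genes, and in Rab20 a repeat bound by interferon regulatory factors (GAAANNGAA), each searched on both strands. No 2 of the matches shown overlap. Rab20 is shown at chr8:11478711-11478890 (minus strand), Rab39 at chr9:53706233-53706482 (minus), Rab27a at chr9:73044560-73044809 (plus), Rab31 at chr17:65772753-65773002 (minus) and Rab33b at chr3:51483716-51483919 (plus).
Rab20: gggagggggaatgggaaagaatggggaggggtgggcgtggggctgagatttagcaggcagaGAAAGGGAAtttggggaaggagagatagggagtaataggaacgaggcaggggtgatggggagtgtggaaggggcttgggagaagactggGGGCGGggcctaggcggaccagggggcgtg
Rab39: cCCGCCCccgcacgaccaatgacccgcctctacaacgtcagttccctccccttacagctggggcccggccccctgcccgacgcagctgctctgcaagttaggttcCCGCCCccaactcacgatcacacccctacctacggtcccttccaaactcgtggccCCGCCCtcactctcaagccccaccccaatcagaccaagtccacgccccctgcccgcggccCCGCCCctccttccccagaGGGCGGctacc
Rab27a: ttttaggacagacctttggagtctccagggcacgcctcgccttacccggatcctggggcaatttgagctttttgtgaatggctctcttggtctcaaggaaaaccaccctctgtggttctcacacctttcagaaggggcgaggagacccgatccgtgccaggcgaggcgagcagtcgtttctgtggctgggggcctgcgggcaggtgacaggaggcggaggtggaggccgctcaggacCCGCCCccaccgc
Rab31: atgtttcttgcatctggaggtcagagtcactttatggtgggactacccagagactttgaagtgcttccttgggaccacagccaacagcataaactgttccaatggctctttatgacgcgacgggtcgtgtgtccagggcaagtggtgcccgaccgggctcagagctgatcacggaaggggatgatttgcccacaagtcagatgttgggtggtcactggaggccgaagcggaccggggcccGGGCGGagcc
Rab33b: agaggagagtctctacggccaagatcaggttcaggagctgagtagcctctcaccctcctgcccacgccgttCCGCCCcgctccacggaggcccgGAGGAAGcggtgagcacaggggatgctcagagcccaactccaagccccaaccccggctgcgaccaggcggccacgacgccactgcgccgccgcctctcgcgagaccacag

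A promoter was found in the RefSeq table for 38 of the 46 genes. The GC box was in 27 of the 38 windows (71.1%), against 32.7% of all 32851 windows of 250 bases and 59.5% of the windows of genes with at least 10 CPM. It was in all 5 of the promoters shown, in both patterns, and Rab39 held 5 of them. The PU.1 core was in 5 windows (Rab2b, Rab6a, Rab12, Rab32 and Rab33b; 13.2%, against 10.6% of all windows and 11.9% of those of genes with at least 10 CPM). The E-box CACGTG, which binds the lysosomal regulator TFEB, was in 4 (Rab5a, Rab20, Rab21 and Rab23; 10.5%, against 6.02% of all windows and 8.95% of those of genes with at least 10 CPM), in Rab20 within the bases left out above. TTGCNNAA, read by C/EBP factors, was in Rab1b and Rab29 (5.26%, against 9.56% and 7.68%), and TGANTCA, read by AP-1, was in Rab34 alone (2.63%, against 6.75% and 4.46%). The repeat GAAANNGAA was in 2 (Rab19 and Rab20; 5.26%, against 7.13% and 6.78%). A match is a run of letters, not a bound site, and these shares describe the windows only.

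By annotated position on GRCm38, Rab27a (ENSMUSG00000032202.11) lies on chromosome 9 from 73044854 to 73097629 on the plus strand, and Rab39 (ENSMUSG00000055069.3) on the same chromosome from 53684110 to 53706232 on the minus strand. Rab33b (ENSMUSG00000027739.9) lies on chromosome 3 from 51483920 to 51496232, plus strand. Rab20 (ENSMUSG00000031504.6) lies on chromosome 8 from 11453518 to 11478710, minus strand, and Rab31 (ENSMUSG00000056515.9) on chromosome 17 from 65651729 to 65772752, minus strand. Rab12 (ENSMUSG00000023460.13) lies on chromosome 17 from 66494512 to 66519729, minus strand, and Rab9 (ENSMUSG00000079316.10) on chromosome X from 166457253 to 166479867, minus strand. Each value counts a whole gene, so exons, introns and untranslated parts are not told apart. Rab33b shares exon bases with Gm38160 on the opposite strand (2.44 CPM or less) and Rab20 with E230013L22Rik on the opposite strand (0.846, 8.13, 5.05 and 7.77 CPM). Whether the counting used strand is not given in the sources used here.

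Seen pair by pair, most of the 2-fold differences involved cDC1, and none lay between the other DC populations. Between CD103int DC and cDC1, 2 of 34 Rab genes were at least 2-fold higher (Rab20, Rab31; 9.16% of all genes) and 3 lower (Rab27a, Rab33b, Rab39; 5.46% of all genes). Between cDC1 and cDC2, the same 3 were higher in cDC1 (7.27% of all genes) and the same 2 lower (9.56%). Between cDC1 and macrophages, 2 were higher (Rab27a, Rab39; 9.21%) and 4 lower (Rab20, Rab31, Rab12, Rab9; 15.8%). With columns rescaled to equal totals this became 4 higher and 2 lower, against 27.7% of all genes in either direction. Between CD103int DC and cDC2, 0 of 33 Rab genes were 2-fold apart, where 1.56% of all genes were higher and 0.665% lower. Between CD103int DC and macrophages, 0 of 34 were higher (4.35%) and 2 lower (Rab20, Rab33b; 8.31%). After rescaling it was 1 higher and 1 lower, against 12.8% of all genes in either direction. Between cDC2 and macrophages, 0 of 34 were higher (1.78%) and 0 lower (6.01%). With 1 library on each side, none of these counts has a test. The 5 of 34 genes (14.7%) that separated cDC1 from each other DC population lie near the share of all genes, 14.6% for CD103int DC and 16.8% for cDC2.

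**Figure D3:**
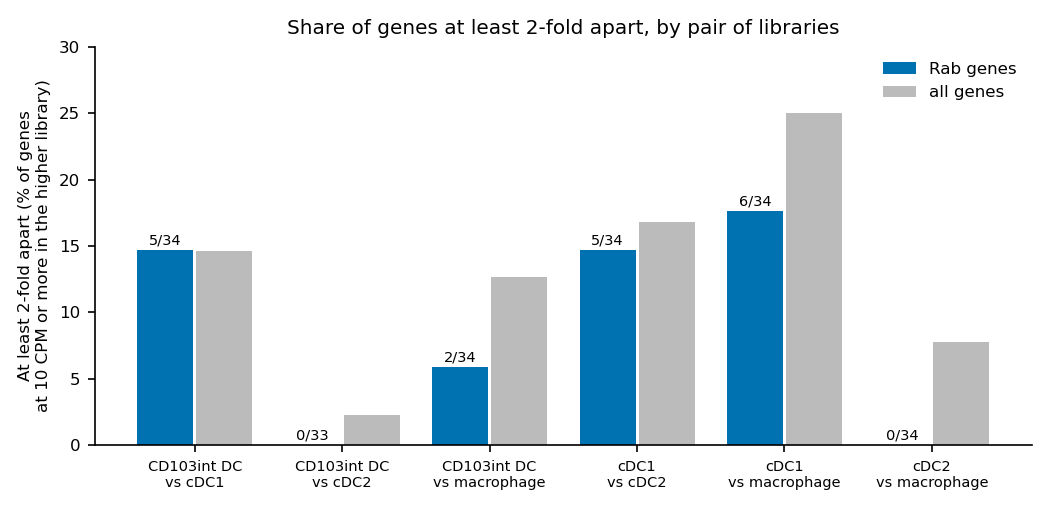
Share (%, axis from 0) of Rab genes and of all genes at least 2-fold apart in each pair of libraries, among genes with at least 10 CPM in the higher library; the fractions above the bars count Rab genes. The Rab bars are at 0 for CD103int DC against cDC2 and for cDC2 against macrophages.

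Smaller differences leaned toward macrophages. Of the 35 Rab genes at 10 CPM or more, 25 had their highest level in macrophages, as did 38.3% of all genes, and 6 in cDC1 (31.1% of all genes). In 21 of the 35 the lowest level was in cDC1, as in 38.7% of all genes. This lean depends on the scaling, because the macrophage column summed to 1169346 CPM and the others to 905670 to 974649. With columns rescaled to equal totals, 12 of 35 were highest in macrophages (19.7% of all genes) and 13 in cDC1 (45.2%), and with median-ratio scaling 25 and 6. Rescaling to equal totals moved the median of all genes by 0.27 for CD103int DC against macrophages, by 0.38 for cDC1 and by 0.28 for cDC2. Measured from the median of all genes, the Rab median was lower than in macrophages by 0.27 in CD103int DC, 0.21 in cDC1 and 0.23 in cDC2, and by 0.28, 0.22 and 0.24 after rescaling, on the log2(CPM + 1) scale.

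The early endosome and recycling group had 11 measured members, all at 10 CPM or more, and only Rab31 was 2-fold apart (31.5% of all genes). The groups by role are small, and differences between their counts were not tested. Rab5a, Rab5b and Rab5c drive fusion of early endosomes, and Rab5c was the most abundant of them per kilobase of exon, at 78.0, 103, 94.6 and 138 CPM per kb. In CPM, Rab5c stood at 171, 226, 207 and 304, Rab5a at 52.0, 56.8, 54.9 and 83.8, and Rab5b at 84.6, 90.2, 88.4 and 93.7. Rab5b had the smallest range of all members, 0.14 on the log2(CPM + 1) scale, while Rab5c and Rab5a were highest in macrophages. Rab22a, the closest relative of Rab31 in this group, stood at 26.3, 37.5, 38.8 and 50.7 CPM. Rab31 held 58.4% (56.6 to 60.1) of the estimated reads of the 2 genes in cDC1 and 72.4% (71.3 to 73.5), 71.95% (70.95 to 72.9) and 75.7% (74.9 to 76.5) in the other libraries, by exact binomial intervals. Rab35, a GTPase of fast recycling, was also steady, at 70.7, 66.9, 77.2 and 68.2 CPM. The rest of the group, Rab4b, Rab11a, Rab11b, Rab14 and Rab21, ranged from 35.0 CPM (Rab4b in CD103int DC) to 172 CPM (Rab14 in macrophages).

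Of 8 measured late endosome, lysosome and phagosome members, 6 reached 10 CPM. Of these, 3 were 2-fold apart (Rab20, Rab39, Rab9), as were 31.5% of all genes, and Rab9 lay at the threshold. Rab7, which directs fusion of late endosomes and phagosomes with lysosomes, had the highest summed level of the family per kilobase, at 92.3, 128, 124.5 and 130.3 CPM per kb. In CPM it stood at 241, 334, 325 and 340.0, so that cDC1 was lowest and the others close together. Rab7b, a relative that acts in transport from endosomes to the trans-Golgi network and is expressed in monocytic cells, stood at 109.8, 116, 97.9 and 155 CPM, with the CD103int DC lowest. Rab24, linked to autophagy, stood at 39.6, 19.6, 20.5 and 27.7 CPM, but its exons overlap those of Prelid1 on the opposite strand (195, 208, 246 and 196 CPM). Rab34 and Rab36, which position lysosomes, were at 1.59 CPM or less in every library.

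Among 7 measured GTPases of lysosome-related organelles and regulated secretion, 3 reached 10 CPM and only Rab27a was 2-fold apart (31.5% of all genes). Rab3d, a GTPase of secretory granules, was the clearest case of a highest level in CD103int DC, at 31.3, 42.9, 61.2 and 34.5 CPM. Its level there was 1.96-fold (1.84 to 2.08) above cDC1, 1.43-fold (1.35 to 1.51) above cDC2 and 1.77-fold (1.68 to 1.88) above macrophages, and it passed 2-fold against macrophages only with columns rescaled to equal totals. Rab32, known from melanosomes and from defence against bacteria in macrophages, stood at 57.5, 76.4, 73.7 and 103 CPM. Its partner Rab38 was listed at 0 in cDC1 and at 0.625, 0.941 and 0.513 CPM in the others. Rab44, a large Rab protein with calcium-binding motifs, stayed under 10 CPM but was highest in macrophages, at 1.33, 2.80, 2.66 and 9.62 CPM. Rab3a and Rab37 were at 1.94 CPM or less, and Rab37 overlaps Cd300lf on the opposite strand, without shared exon bases, and Rab3a shares exon bases with Mpv17l2 there (8.24, 15.3, 15.3 and 11.5 CPM).

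Of 12 measured ER and Golgi members, 9 reached 10 CPM and only Rab33b was 2-fold apart (31.5% of all genes). Rab43, a Golgi GTPase that takes part in cross-presentation by cDC1 in mice, had the highest CPM of the family, at 465 in cDC1, 279.8 in cDC2, 297 in CD103int DC and 279 in macrophages. The cDC1 level was above all others, and the rest lay close together. The ratio of cDC1 was 1.66 (1.63 to 1.70) to cDC2, 1.56 (1.53 to 1.60) to CD103int DC and 1.67 (1.63 to 1.70) to macrophages, below the 2-fold rule. With columns rescaled to equal totals Rab43 passed 2-fold against macrophages. Rab43 (ENSMUSG00000030055.16) lies on chromosome 6 from 87788853 to 87812164, minus strand. Gm45140, a gene model that shares exons with Rab43 on the same strand, stood at 39.2, 36.4, 29.9 and 26.8 CPM, and the sums of both were 504, 316, 327 and 306.

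Rab1a, which carries vesicles from the ER to the Golgi, stood at 149, 205, 193 and 282 CPM, with macrophages highest and cDC1 lowest. Its paralogue Rab1b was level, at 102, 109, 119 and 110.4 CPM, so Rab1a made up 59.4% (58.5 to 60.3) of the reads of the pair in cDC1 and 71.85% (71.2 to 72.5) in macrophages. Rab2a, which acts in the same transport step, was among the steadiest at 54.9, 60.1, 55.1 and 64.6 CPM, and Rab2b was low at 2.29, 5.25, 3.70 and 3.61 CPM, with exon bases shared with Tox4 on the opposite strand (130, 107, 103 and 146 CPM). Rab6b, an isoform best known from neurons, was at 8.28 CPM in cDC1 and at 0.970, 1.93 and 1.06 CPM elsewhere. It made up 11.0% (10.02 to 12.1) of the Rab6 reads in cDC1, and 1.17% (0.854 to 1.56), 2.22% (1.83 to 2.67) and 1.01% (0.771 to 1.31) in the others. Rab30, another Golgi GTPase, showed the same pattern at low level, with 4.14, 0.798, 0.557 and 0.843 CPM. Rab6b and Rab30 had under 10 CPM in every library and so could not be counted as 2-fold apart. The other members, Rab6a, Rab18, Rab19 and Rab29, lay between 7.71 CPM (Rab19 in cDC1) and 104 CPM (Rab6a in macrophages).

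The exocytic group had 5 measured members, 4 of them at 10 CPM or more and only Rab12 2-fold apart (31.5% of all genes). Rab8a and Rab8b carry cargo from the Golgi and recycling endosomes to the cell surface. Rab8b stood at 254, 276, 318 and 339.9 CPM and Rab8a at 138, 145, 124 and 169 CPM. Rab8b made up 71.97% (71.4 to 72.5) of the reads of the pair in the CD103int DC and 64.9% to 66.8% in the other libraries. Rab10, which delivers Toll-like receptor 4 to the surface of macrophages, ranged from 119 to 155 CPM, and Rab13, an epithelial junction GTPase, from 2.02 to 4.87 CPM. In the remaining group, Rab28, a ciliary GTPase, was steady at 10.6, 11.1, 10.9 and 12.2 CPM. Rab40c, a subunit of a ubiquitin ligase, ranged from 8.92 to 12.3 CPM, and Rab23, a Hedgehog regulator of cilia, was at 1.78 CPM or less.

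Of the Arf family, other small GTPases of vesicle traffic, 6 of 20 genes were 2-fold apart between some pair and of the Ras family 9 of 15, against the 7 of 35 Rab genes and 31.5% of all genes. The Arf count lies near the share of all genes. The median ranges of the Arf and Ras families were 0.68 and 1.10 on the log2(CPM + 1) scale. The difference between the families was not tested.

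**Figure D4:**
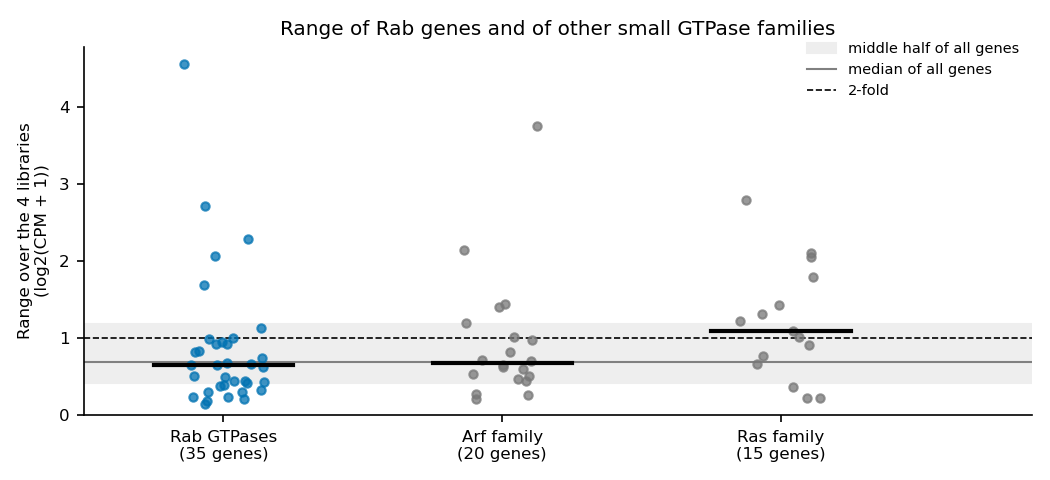
Range over the 4 libraries (log2(CPM + 1)) of each gene with at least 10 CPM in some library, for Rab genes and the Arf and Ras families; black bars are medians, the grey band and line are the middle 50% and the median of all genes, and the dashed line is 2-fold. The Rab median is 0.65, and 7 of 35 Rab genes lie above the dashed line.

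The genes that control Rab GTPases were read by the same rule, which 31.5% of all genes passed. Of the listed exchange factors, which load GTP and so activate their GTPases, 12 of 27 (44.4%) were 2-fold apart between some pair. Among these 12 is Rgl1 (192.6, 177.5, 109.9 and 386.2 CPM), known as an activator of Ral in the Ras family and not of a Rab. Rabgef1 and Rin2, activators of Rab5, stood at 22.8, 42.7, 42.95 and 102 CPM and at 61.4, 136.5, 100.9 and 258 CPM, and Ric1, part of the activator of Rab6, at 39.8, 88.1, 72.6 and 153 CPM. Rabgef1, Rin2 and Ric1 were highest in macrophages and lowest in cDC1. Against macrophages, cDC1 had 3 exchange factors of 26 higher (9.21% of all genes) and 6 lower (15.8%), and CD103int DC had 1 of 27 higher (4.35%) and 5 lower (8.31%). Both of the lower counts include Rgl1.

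GTPase-activating proteins, which switch Rab proteins off, were 2-fold apart for 11 of 31 (35.5%), near the 31.5% of all genes. Between cDC1 and cDC2, 7 of 30 were higher in cDC1 (7.27% of all genes) and 2 lower (9.56%). Tbc1d4, known from insulin-driven glucose transport, stood at 102, 20.9, 22.3 and 22.4 CPM and Rabgap1l at 36.0, 8.21, 10.01 and 12.15 CPM, both highest in cDC1. Tbc1d2b ran the other way, at 33.0, 86.2, 84.25 and 171.5 CPM. Effectors, which act downstream of the GTP-bound form, were 2-fold apart for 12 of 36 (33.3%), also near the share of all genes. Myrip, which links Rab27a to myosin motors, had the widest range of them, at 14.45, 0.259, 1.78 and 0.550 CPM, and so was highest in the library where Rab27a was highest. Unc13d, the granule priming factor bound by Rab27a, differed less, at 70.8, 44.4, 42.1 and 54.7 CPM. Mical2 (21.3, 4.89, 9.23 and 2.71 CPM), an enzyme that disassembles actin filaments, and Rab11fip4 (23.0, 4.87, 7.21 and 5.99 CPM), an effector of Rab11, were highest in cDC1 too.

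Of the 8 genes for prenylation and membrane extraction, on which all Rab proteins depend, 2 were 2-fold apart (31.5% of all genes), both highest in cDC1. Gdi2, which draws Rab proteins off membranes, stood at 1048, 591, 642 and 504 CPM, and Chml, an escort for the lipid-adding enzyme, at 33.5, 14.7, 19.6 and 20.1 CPM. Between CD103int DC and cDC2 none of the 4 groups had a gene 2-fold apart, near the share of all genes, 2.23%. Dennd3 and Lrrk2, like Unc13d above, were chosen after their values were seen, to stand beside their Rab partners. Dennd3, an exchange factor for Rab12, was at 30.5, 13.1, 10.3 and 11.3 CPM, highest in cDC1, where Rab12 was lowest. Lrrk2, a kinase that phosphorylates several Rab proteins, was at 119.9, 32.3, 38.4 and 72.3 CPM, while its partner Rab29 was at 18.5, 14.1, 14.7 and 18.6 CPM.

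**Figure D5:**
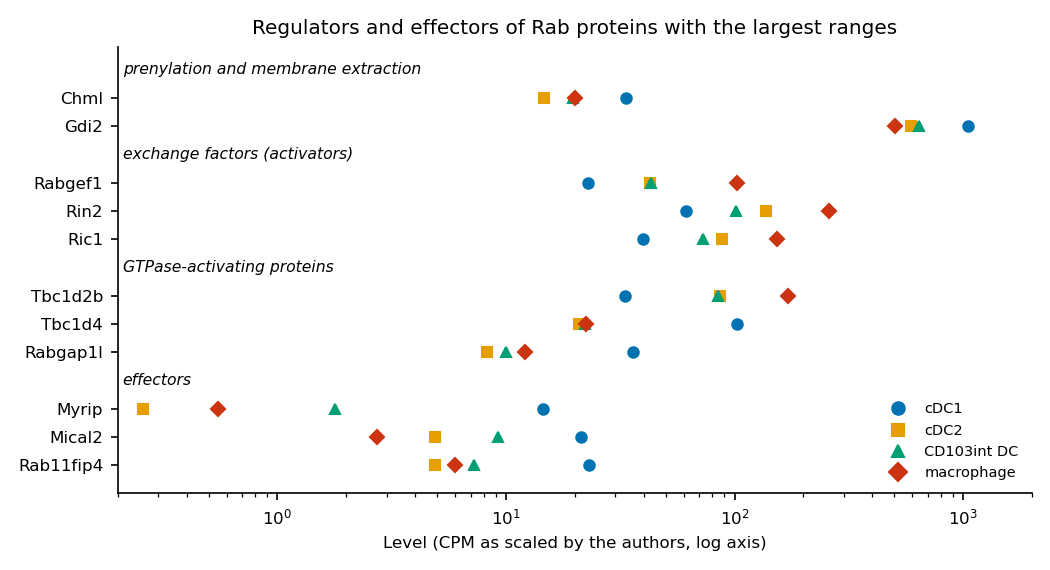
Levels (CPM, log axis) of the Rab regulators and effectors with the largest ranges in each list, up to 3 a list, with 1 symbol for each library. Rabgef1, Rin2, Ric1 and Tbc1d2b are highest in macrophages, and the other 7 genes are highest in cDC1.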

How the data were processed

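Total RNA from the sorted cells was freed of genomic DNA and made into strand-marking libraries, per the labels' protocols. The authors deposited 1 table of an expression signal for 13976 genes. Per its name it holds CPM after TMM scaling of the library sizes, filtered by an unstated rule, and every gene in it reached at least 0.496 CPM in some library. The aligner, counting program and build were not given in the sources used here. The 13976 identifier and symbol pairs all matched GENCODE release M21 (GRCm38), which gave positions and exon lengths.

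The value of 1 read was taken as the largest value under 0.1 CPM of which at least 60% of a column's values above 0 were whole multiples, at a tolerance of 0.001 of that value. It was 0.0204, 0.0216, 0.0174 and 0.0183 CPM, and between 70.6% and 79.0% of values were whole, so the reads are estimates and no count test was run. A level of 10 CPM then carries a counting error of 4.17% to 4.64%. Intervals are exact Poisson intervals for levels and exact binomial ones for shares and ratios, at 95%. They cover counting error only, and reads amplified without molecular identifiers are not independent molecules.

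With 1 library a group no p-value is given. Libraries were compared in all 6 pairs after adding 1 CPM and taking log2, a scale on which differences of low genes come out too small, and the printed folds are ratios of CPM. Alternatives changed the scaling, the pseudocount, the minimum, the threshold and the libraries used. Named were all Rab genes 2-fold apart, the 5 with the highest summed CPM per kb of exon, the 5 steadiest with 10 CPM in every library, their paralogues, and up to 3 genes of each regulator list, with others added to cover the groups. The members, lists and motifs were chosen with earlier results of these data known. A further gene family listed for comparison is not reported here. The rule for calling was run on simulated data with counting noise only and with changes larger than 2-fold. That check could not cover changes near 2-fold or variation between libraries. Python 3.11.15 and SciPy 1.17.1 were used.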

Additional observations from a re-analysis of the deposited data

How the results depend on the processing

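No paired analysis was possible because each population had 1 library. Of 18 differences of at least 2-fold between 2 libraries, none changed direction under the 3 alternatives of scaling and pseudocount. With columns rescaled to equal totals, 15 of the 18 stayed past 2-fold. All 18 did with median-ratio scaling, but its factors of 0.993 to 1.007 leave the levels almost as the authors scaled them. All 18 also did with a pseudocount of 0.1, which can only widen such differences, so these 2 settings are weak checks. Rescaling gave 8 genes 2-fold apart in any pair (34.6% of all genes), without Rab12 and Rab9 and with Rab3d, Rab24 and Rab43. With a minimum of 1 CPM or with none in place of 10, 11 genes were 2-fold apart in any pair (33.9% and 32.3% of all genes), the added ones being Rab6b, Rab30, Rab36 and Rab44, 10 between cDC1 and macrophages (25.7% and 23.8%) and 1 between cDC2 and macrophages (7.11% and 6.45%). At 1.5-fold the counts were 19 in any pair (59.0% of all genes), 9 for CD103int DC against cDC1 (29.2%), 7 for CD103int DC against macrophages (31.2%), 9 for cDC1 against cDC2 (32.7%), 16 for cDC1 against macrophages (44.8%) and 4 for cDC2 against macrophages (24.3%), and still 0 for CD103int DC against cDC2 (7.22% of all genes). Leaving out 1 library, an alternative added after seeing the data, gave 2 to 7 genes in any pair, with 2 when cDC1 was left out (14.4% of all genes), 5 without macrophages (19.4%) and 7 without cDC2 (30.1%) or CD103int DC (29.0%). Depth limits the genes near 1 CPM, where the counting intervals are wide.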
